A study of Mus musculus with 10 samples.

Results

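The genes described here are 10 components of the NF-kB system: the Rel-family subunit genes Rela, Relb, Rel, Nfkb1 and Nfkb2, the inhibitor and feedback genes Nfkbia, Nfkbiz, Bcl3 and Tnfaip3, and the kinase gene Ikbkb. They were chosen by symbol from the deposited count table, with earlier results of these data known. Each of the 10 was found once among 55414 rows. All 10 passed the filter on low counts, alongside 14062 genes in all. Polyadenylated RNA had been sequenced from mouse gingival epithelium, the gum lining around the teeth, which was loosened with Dispase, lifted off with forceps and divided by hand. The groups are 5 libraries from the buccal side, facing the cheek, and 5 from the palatal side, facing the palate. The labels give the side as the only difference between them and name no strain, age, genotype, treatment or microbial status for either group. The series' design text speaks of pooled SPF and GF samples, but no label ties either to any of the 10 libraries, so whether these differ in microbial status or in pooling is not known from the sources used here.

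NF-kB is a set of dimeric transcription factors that turns on genes of inflammation, barrier defence and cell survival. In resting cells the dimers are held in the cytoplasm by inhibitor proteins of the IkB class. In the canonical pathway the kinase IKK-beta marks IkB-alpha for destruction, which frees mainly Rela-containing dimers, whereas in the alternative pathway the kinase NIK leads to processing of the Nfkb2 product and frees Relb-containing dimers. The freed dimers also switch on genes that restrain the pathway, among them Nfkbia and Tnfaip3, so transcripts of these genes are widely used as readouts of recent NF-kB activity. In keratinocytes the pathway responds to interleukin 1, interleukin 17, TNF and microbial products.

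Because the Rel-family dimers bind a short DNA element, the kappa B site, the reference promoters of the genes were read for it. RefSeq promoters of the GRCm38.p6 build, which is not the build of the counts, were at hand for 6 of the 10 genes: Nfkb2, Rela, Rel, Nfkbia, Tnfaip3 and Bcl3. The 5 sequences below set genes that were lower in palatal epithelium (Nfkb2, Nfkbia, Tnfaip3, Bcl3) beside Rela, whose level was closest between the sides. Nfkbiz, also lower, had no promoter at hand. The 5 sequences were picked by the levels of their genes in these data, and whether the sites bear on those levels was not tested. Each runs 5′ to 3′ over the 250 bases before the first listed start, and capitals mark matches to the kappa B consensus on either strand, with overlapping matches merged.
Nfkb2 (chr19:46304487-46304736, + strand): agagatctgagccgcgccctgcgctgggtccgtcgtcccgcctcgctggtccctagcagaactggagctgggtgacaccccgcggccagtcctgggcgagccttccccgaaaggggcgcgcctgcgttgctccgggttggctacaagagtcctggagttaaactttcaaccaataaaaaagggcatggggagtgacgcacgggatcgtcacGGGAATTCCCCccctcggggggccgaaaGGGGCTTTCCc
Nfkbia (chr12:55492648-55492897, - strand): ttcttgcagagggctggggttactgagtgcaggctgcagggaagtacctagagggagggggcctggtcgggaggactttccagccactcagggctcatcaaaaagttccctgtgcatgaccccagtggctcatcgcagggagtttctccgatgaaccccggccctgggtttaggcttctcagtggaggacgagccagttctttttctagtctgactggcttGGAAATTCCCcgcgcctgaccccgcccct
Tnfaip3 (chr10:19015411-19015660, - strand): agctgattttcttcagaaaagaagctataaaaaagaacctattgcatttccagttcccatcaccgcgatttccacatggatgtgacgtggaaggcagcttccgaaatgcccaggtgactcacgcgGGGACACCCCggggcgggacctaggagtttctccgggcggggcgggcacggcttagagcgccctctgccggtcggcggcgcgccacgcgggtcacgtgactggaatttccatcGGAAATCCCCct
Bcl3 (chr7:19822756-19823005, - strand): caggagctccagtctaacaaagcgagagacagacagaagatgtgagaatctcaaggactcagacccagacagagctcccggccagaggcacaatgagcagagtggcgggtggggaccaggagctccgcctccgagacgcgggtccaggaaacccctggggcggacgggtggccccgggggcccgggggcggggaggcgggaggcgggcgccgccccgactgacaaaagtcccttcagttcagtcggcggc
Rela (chr19:5637291-5637540, + strand): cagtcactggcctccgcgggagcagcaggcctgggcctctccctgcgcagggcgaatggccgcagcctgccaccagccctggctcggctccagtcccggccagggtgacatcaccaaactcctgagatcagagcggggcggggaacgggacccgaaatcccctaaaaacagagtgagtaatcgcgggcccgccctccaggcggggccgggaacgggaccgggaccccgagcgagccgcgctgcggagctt

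The Nfkb2 window held 2 matches, GGGAATTCCCC beginning 39 bases before the start and GGGGCTTTCC beginning 11 bases before it. The Nfkbia window held GGAAATTCCC, beginning 29 bases before the start, and also 1 copy of the letters GGACTTTCC, which fall outside the consensus. The Tnfaip3 window held GGGACACCCC at 125 and GGAAATCCCC at 12 bases before the start, with 1 copy of the AP-1 motif TGACTCA. Neither the Bcl3 window nor the Rela window held a match, which says only that these letters are not in those 250 bases. Rel, not printed and not among the genes that were lower, held 1 merged match, GGGAAATCCCC. In all, 4 of the 6 genes with a promoter held the consensus before at least 1 start, against 8.23% of 27025 genes in the promoter table; GGACTTTCC was found for 0.333% and TGACTCA for 5.16% of those genes on either strand.

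Of the 10 genes, 5 were lower in palatal than in buccal epithelium and 0 were higher (edgeR's quasi-likelihood test, Benjamini-Hochberg adjusted over all tested genes, threshold 0.05). At an unadjusted p under 0.05 there were 7 lower and 0 higher, against 23.9% of all tested genes lower and 22.8% higher at that threshold, and DESeq2 and limma-voom also called 0 higher. The genes that fell were Bcl3, Tnfaip3, Nfkbiz, Nfkb2 and Nfkbia, by 1.61-fold, 1.60-fold, 1.38-fold, 1.37-fold and 1.26-fold. The sides differ broadly, so the count has to be read against its background: 38.9% of all tested genes passed this test in either direction, 20.3% lower and 18.7% higher in palatal. The median log2 fold change of the 10 genes was -0.36, against 0.01 over all tested genes. In 5 of the 10 genes, the same 5 that fell, every buccal library lay above every palatal one. That separation was seen for 14.7% of tested genes (2062, beside 2850 called lower). It largely restates the calls and is no further support for them. Levels are given as CPM, each gene's count relative to its library's TMM-scaled total, and fold changes are log2, palatal minus buccal, ± SE with n = 5 per side. In bulk tissue a change in the number of cells of one type and a change in RNA per cell cannot be told apart.

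**Figure D1:**
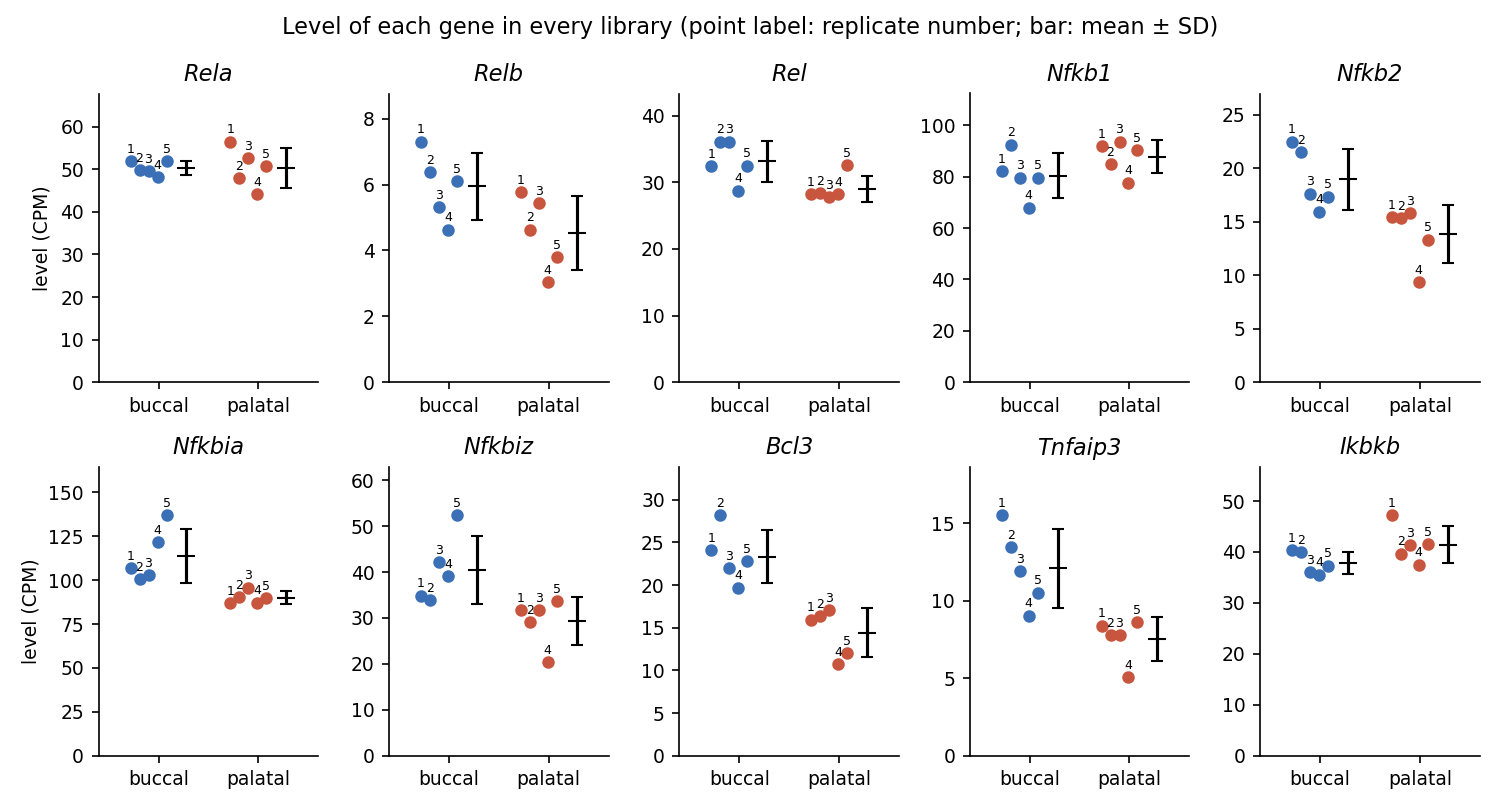
Level in CPM (linear axis from 0) of the 10 genes in every library, buccal in blue and palatal in red; points carry the replicate number and bars give mean ± SD (n = 5). The point clouds of Nfkb2, Nfkbia, Nfkbiz, Bcl3 and Tnfaip3 do not overlap between the sides, whereas those of Rela, Relb, Rel, Nfkb1 and Ikbkb do.

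Among the subunits, those of the canonical dimer stood at similar levels on the 2 sides. Rela encodes the main activating subunit, with a transactivation domain. Its level was 51.9, 49.9, 49.5, 48.1 and 52.0 CPM in buccal libraries 1 to 5 and 56.5, 47.8, 52.6, 44.2 and 50.7 CPM in palatal libraries 1 to 5. The palatal values fell on both sides of the narrow buccal range, and the log2 fold change was 0.00 ± 0.07 (edgeR adjusted p = 0.973). Nfkb1 encodes the precursor of the small subunit that pairs with Rela and has no transactivation domain of its own. It stood at 82.0, 92.4, 79.7, 68.0 and 79.6 CPM in buccal and 91.8, 85.0, 93.6, 77.7 and 90.3 CPM in palatal libraries. The ranges overlapped with only palatal library 3 above every buccal one, and the fold change of 0.13 ± 0.08 was not past the threshold (edgeR adjusted p = 0.237).

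Nfkb2, which encodes the precursor processed in the alternative pathway, was the only subunit gene past the threshold. Its level was 22.5, 21.5, 17.6, 15.9 and 17.3 CPM in buccal and 15.4, 15.4, 15.8, 9.32 and 13.3 CPM in palatal libraries. The sides were separated by a small gap, between buccal library 4 and palatal library 3. The fold change was -0.45 ± 0.14 (edgeR adjusted p = 0.0177); with 1 library left out at a time it stayed past the threshold, at adjusted p values up to 0.0489. Relb encodes the partner of the processed Nfkb2 product. It stood at 7.30, 6.37, 5.32, 4.63 and 6.10 CPM in buccal and 5.76, 4.63, 5.45, 3.03 and 3.79 CPM in palatal libraries. In 3 of 5 palatal libraries Relb lay below every buccal one, and its fold change of -0.38 ± 0.17 missed the threshold (edgeR adjusted p = 0.084). It passed without buccal library 4 (-0.46, adjusted p = 0.0475) or without palatal library 1 (-0.48, adjusted p = 0.043).

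Rel, which encodes the c-Rel subunit best known from lymphocytes, was 32.4, 36.1, 36.1, 28.8 and 32.5 CPM in buccal and 28.2, 28.4, 27.7, 28.2 and 32.5 CPM in palatal libraries. In 4 of 5 palatal libraries it lay just below the whole buccal range, with palatal library 5 inside it. The fold change was -0.19 ± 0.08 (edgeR adjusted p = 0.0583), and it passed without buccal library 4 (-0.24, adjusted p = 0.0196) or without palatal library 5 (-0.23, adjusted p = 0.0292).

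The 3 nuclear or cytoplasmic IkB-class genes on the list all fell. Nfkbia encodes IkB-alpha, the inhibitor that is destroyed on activation and resynthesised as negative feedback. Its level was 106.7, 100.5, 102.8, 121.8 and 137.1 CPM in buccal and 87.1, 90.4, 95.8, 87.2 and 89.6 CPM in palatal libraries. The palatal values were tightly grouped (coefficient of variation 3.94%, against 13.6% in buccal) and all lay under the lowest buccal library. The fold change was -0.34 ± 0.08 (edgeR adjusted p = 0.00474). Nfkbiz encodes IkB-zeta, a nuclear co-regulator induced in keratinocytes by interleukin 17 and interleukin 36. It was 34.9, 33.9, 42.2, 39.1 and 52.4 CPM in buccal and 31.7, 29.0, 31.8, 20.4 and 33.7 CPM in palatal libraries, so the highest palatal and lowest buccal values nearly touched. The fold change was -0.47 ± 0.14 (edgeR adjusted p = 0.0177), and with no filter on low counts the call was lost (-0.46, adjusted p = 0.0903, with 29221 genes tested).

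Bcl3 encodes a nuclear IkB-class protein that joins dimers of the small subunits and can give them activating function. Its level was 24.1, 28.2, 22.0, 19.7 and 22.8 CPM in buccal and 15.9, 16.3, 17.1, 10.8 and 12.0 CPM in palatal libraries. Palatal libraries 4 and 5 were the lowest, and a clear gap separated the sides. The fold change of -0.69 ± 0.13 had the smallest p of the 10 genes (edgeR adjusted p = 6.65e-04) and ranked 2192 by p among all tested genes.

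Of the regulators of signalling, the feedback gene fell and the kinase gene did not pass. Tnfaip3 encodes a ubiquitin-editing enzyme that switches off signalling upstream of IKK. It was 15.5, 13.4, 11.9, 9.02 and 10.5 CPM in buccal and 8.38, 7.79, 7.76, 5.06 and 8.63 CPM in palatal libraries. Buccal library 4 lay close above the palatal group, and palatal library 4 lay well below it. The fold change was -0.68 ± 0.16 (edgeR adjusted p = 0.00315), and -0.56 without palatal library 4 (adjusted p = 0.00507). Ikbkb encodes IKK-beta, the kinase that marks IkB-alpha. It stood at 40.3, 39.9, 36.0, 35.6 and 37.3 CPM in buccal and 47.2, 39.6, 41.3, 37.5 and 41.5 CPM in palatal libraries. In 3 palatal libraries it lay above every buccal one, and the fold change of 0.13 ± 0.07 was not past the threshold (edgeR adjusted p = 0.163).

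Levels between genes were compared per kilobase of exon (RPKM, using protein-coding exon lengths from GENCODE M21, a release on GRCm38). In buccal epithelium the order was Nfkbia at 72.1 ± 9.79, Nfkb1 at 19.5 ± 2.11, Rela at 18.5 ± 0.61, Bcl3 at 12.6 ± 1.70, Nfkbiz at 9.79 ± 1.80, Ikbkb at 8.35 ± 0.48, Nfkb2 at 4.49 ± 0.67, Rel at 4.44 ± 0.41, Relb at 2.69 ± 0.46 and Tnfaip3 at 2.63 ± 0.55 RPKM (SD, n = 5). Nfkb1 and Rela, Bcl3 and Nfkbiz, Nfkbiz and Ikbkb, Nfkb2 and Rel, and Relb and Tnfaip3 overlapped as neighbours in that order. In palatal epithelium Nfkbia was again first at 57.1 ± 2.25 RPKM and Tnfaip3 last at 1.64 ± 0.31 RPKM, and Ikbkb (9.14 ± 0.80) stood above Bcl3 (7.80 ± 1.54), with overlapping libraries. Of the summed per-length level of the 5 subunit genes, Nfkb1 made up 39.2% (37.5% to 41.8%) in buccal and 43.4% (41.9% to 44.4%) in palatal libraries. The share of Nfkb2 was 9.03% (8.27% to 10.3%) in buccal and 6.65% (5.20% to 7.62%) in palatal libraries, and that of Rela 37.4% and 37.8%. Messenger RNA levels do not give the amounts of processed protein.

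Ratios of 2 of the genes within a library do not depend on how libraries are scaled. They are ratios of counts without correction for exon length, so their size does not give the relative level of the 2 transcripts. A set of 7 ratios, chosen by the proteins' roles after the gene values were known, were tested on the log2 scale by exact two-sided permutation of the 10 libraries, which can give no p under 0.00794. They restate the same counts and are no independent support for the fold changes. Nfkb2 over Nfkb1 was 0.218 to 0.274 in buccal libraries and 0.12 to 0.181 in palatal libraries, a log2 difference of -0.60 (exact permutation p = 0.00794, adjusted over 7 ratios 0.0139). Nfkbia over Rela, the inhibitor against the subunit it retains, was 2.02 to 2.64 against 1.54 to 1.97 (-0.33). Bcl3 over Nfkb1 was 0.276 to 0.305 against 0.133 to 0.192 (-0.84), and Tnfaip3 over Ikbkb 0.254 to 0.385 against 0.135 to 0.208 (-0.81). Each of these 3 had the same exact permutation p and adjusted p as Nfkb2 over Nfkb1.

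The other ratios were less separated. Nfkbiz over Nfkb1 was 0.367 to 0.658 in buccal libraries and 0.263 to 0.373 in palatal libraries (-0.60, exact permutation p = 0.0159, adjusted 0.0223; adjusted 0.0556 without palatal library 4). Relb over Rela was 0.0963 to 0.141 against 0.0685 to 0.103 (-0.41, exact permutation p = 0.0397, adjusted 0.0463), and this call was lost when any of 7 single libraries was left out. Rel over Rela did not pass (-0.19, exact permutation p = 0.119).

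**Figure D2:**
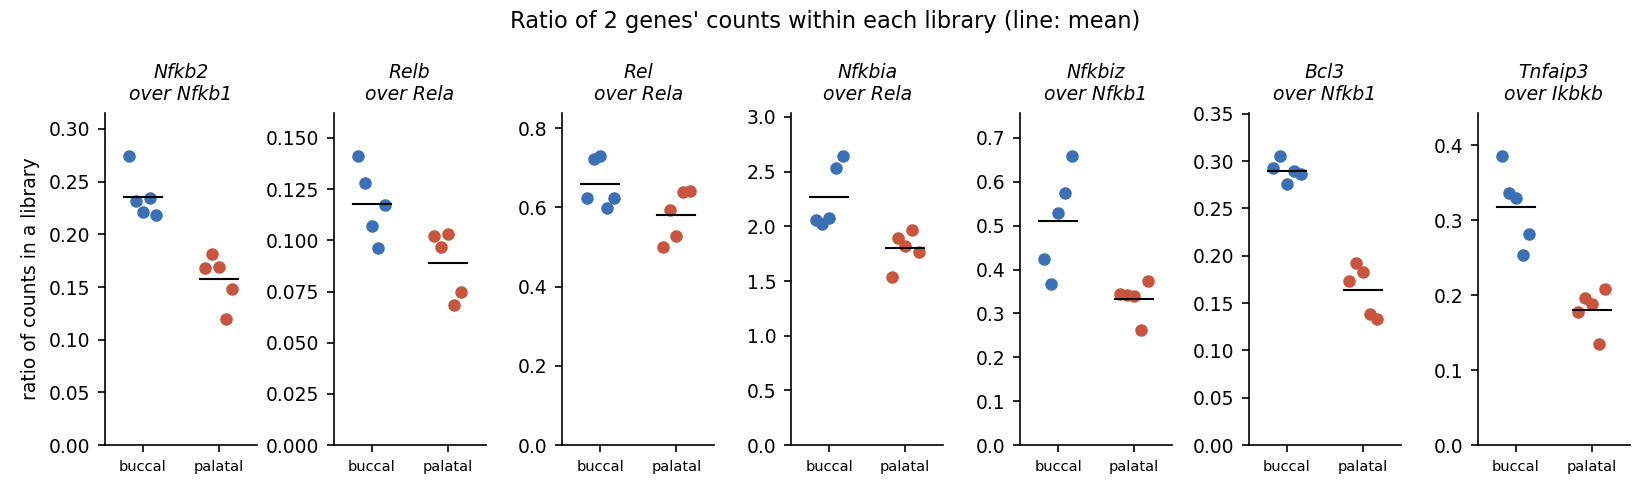
Ratio of the counts of 2 genes within each library (linear axes from 0), buccal in blue and palatal in red, with a line at the mean of each side (n = 5). Nfkb2 over Nfkb1, Nfkbia over Rela, Bcl3 over Nfkb1 and Tnfaip3 over Ikbkb do not overlap between the sides, and Relb over Rela, Rel over Rela and Nfkbiz over Nfkb1 do.

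Within a side, 1 library was low for most of the 10 genes. Palatal library 4 was the lowest of its side for 8 genes (all but Rel and Nfkbia) and averaged -0.31 log2 units from the palatal mean over the 10 genes; it was the lowest of its side for 25.7% of all tested genes and had the smallest total count of the 10 libraries. Buccal library 4 was also the lowest of its side for 8 genes (all but Nfkbia and Nfkbiz), averaging -0.17, and the lowest for 18.9% of all tested genes. With number 4 left out on both sides, a choice made after seeing the data, Nfkb2, Nfkbia, Nfkbiz, Tnfaip3 and Bcl3 stood at -0.40, -0.30, -0.38, -0.66 and -0.66 and all passed, and Rel passed too (-0.23, edgeR adjusted p = 0.0359); that fit called 34.1% of all tested genes. The highest buccal values of Nfkbia were in libraries 5 and 4, where Tnfaip3 was at its lowest.

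**Figure D3:**
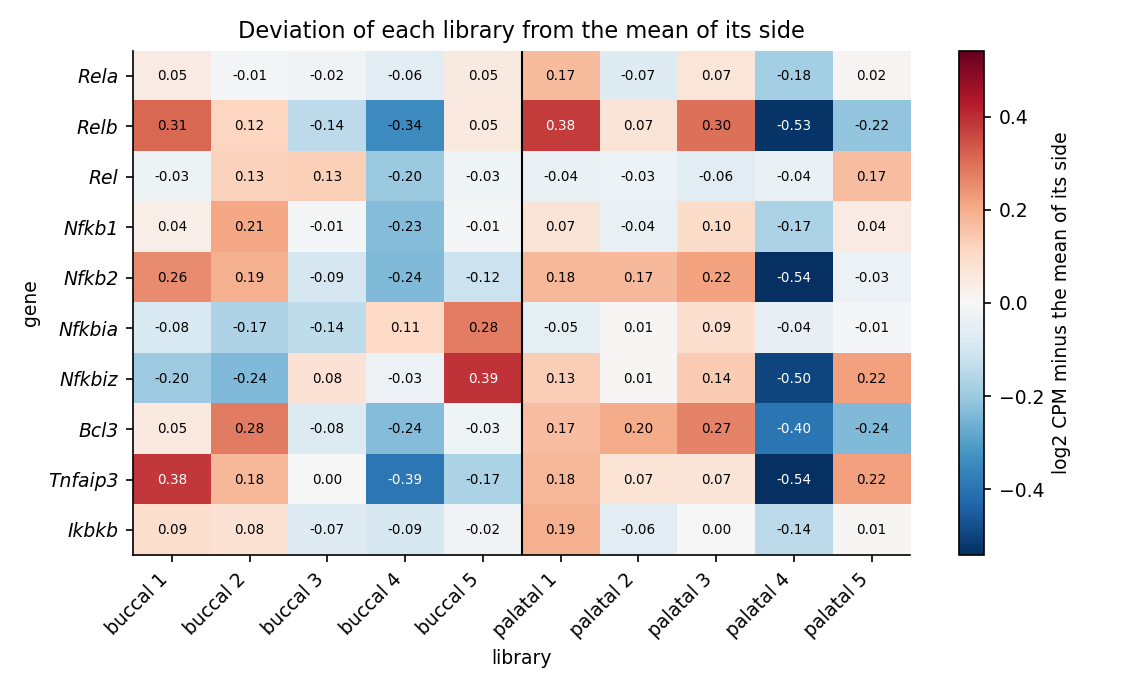
Difference of each library's log2 CPM from the mean of its own side for the 10 genes, red above and blue below, with the value in each cell. Palatal library 4 is low for Relb, Nfkb2, Nfkbiz, Bcl3 and Tnfaip3 together, and buccal library 5 is the highest of its side for Nfkbia, Nfkbiz and, by a small margin, Rela.

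Once each side's mean was subtracted, the closest pairs among the 10 genes over the 10 libraries were Nfkb2 with Relb (Pearson r = 0.91), Nfkb2 with Tnfaip3 (0.90) and Nfkb2 with Bcl3 (0.89), and the most opposed was Rel with Nfkbia (-0.52). These are descriptions of libraries that share depth and composition. Nfkb2, Relb, Tnfaip3 and Bcl3 were each lowest of their side in buccal library 4 and in palatal library 4. In palatal library 4 they stood at -0.54, -0.53, -0.54 and -0.40 from the side mean. The r values without these libraries were not computed. Among 9507 other genes with a mean of at least 5 CPM, those most like Relb were Tmem214 (r = 0.991) and Tep1 (0.976), those most like Rela were Prag1 (0.966) and Katnip (0.951), and those most like Nfkb2 were Pelp1 (0.951) and Ddx17 (0.936). Cry1, a circadian clock gene, was the one most like Bcl3 (0.949), and Extl3 the one most like Tnfaip3 (0.948). All of these are top values among 9507 genes over only 10 libraries, and how high such values run by chance was not tested.

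The rest of the IkB and IKK machinery showed few differences. Of 11 listed genes, all tested, 2 fell and 1 rose, with a median log2 fold change of -0.06 (background 38.9% called). Nfkbib, which encodes IkB-beta, fell from 32.9 ± 1.84 to 26.3 ± 1.13 CPM (SD; -0.32 ± 0.06 SE, edgeR adjusted p = 8.31e-04). Nfkbie, which encodes IkB-epsilon, fell by 0.82 ± 0.25 from a level of 1.49 ± 0.55 CPM (edgeR adjusted p = 0.0189; -0.63 and adjusted p = 0.0566 without buccal library 1). Ikbkg, which encodes the scaffold subunit NEMO, rose from 31.8 ± 1.71 to 36.7 ± 0.40 CPM (0.20 ± 0.06, edgeR adjusted p = 0.0119).

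Genes that control the alternative pathway were mostly lower. Of 11 listed, 10 were tested; 6 fell and 2 rose, with a median of -0.36 (80.0% called against 38.9%). Tnfrsf11a, which encodes the receptor RANK, fell from 3.64 ± 0.52 to 1.72 ± 0.38 CPM (-1.08 ± 0.16 SE, edgeR adjusted p = 9.87e-05). Map3k14, which encodes NIK, the kinase that starts processing of the Nfkb2 product, fell from 9.41 ± 1.09 to 5.83 ± 0.67 CPM (-0.69 ± 0.11, edgeR adjusted p = 1.20e-04). Traf2 and Traf3, adaptors that keep NIK unstable in resting cells, fell by 0.35 ± 0.08 and 0.37 ± 0.09. For these 4 genes, named for their small p, every buccal library lay above every palatal one, as for 14.7% of all tested genes. The 2 that rose were Birc2 (0.29 ± 0.09, edgeR adjusted p = 0.0137) and Tnfrsf13c (0.89 ± 0.27, edgeR adjusted p = 0.0165, from 0.49 CPM). Over all tested genes, 20.3% were called lower and 18.7% higher.

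Canonical receptors, adaptors and kinases moved in both directions. Of 29 genes, all tested, 9 fell and 2 rose, with a median of -0.10, so 37.9% were called against 38.9% of all genes; without palatal library 3 the number called was 7. Ripk2, the kinase downstream of the NOD receptors, fell from 44.0 ± 4.27 to 16.8 ± 2.03 CPM (-1.39 ± 0.09 SE, edgeR adjusted p = 2.81e-08). Tlr3, a receptor for double-stranded RNA, fell from 9.77 ± 2.86 to 3.81 ± 0.66 CPM (SD), and Myd88, the adaptor of interleukin 1 and Toll-like receptors, fell by 0.48 ± 0.07. Card14, a keratinocyte scaffold that activates NF-kB through Bcl10 and Malt1, rose from 20.3 ± 1.79 to 38.6 ± 1.70 CPM (0.92 ± 0.07, edgeR adjusted p = 1.35e-07).

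Negative regulators other than Tnfaip3 and Nfkbia were also divided. Of 20 genes, all tested, 5 fell and 3 rose, with a median of -0.12 (40.0% called against 38.9%). Tnip1, a partner of the Tnfaip3 protein, rose from 35.4 ± 2.25 to 51.0 ± 1.94 CPM (0.52 ± 0.06 SE, edgeR adjusted p = 8.98e-06), opposite in direction to Tnfaip3 itself. Zc3h12a, which encodes an RNA-degrading enzyme of the regnase family, fell (-0.75 ± 0.13), as did N4bp1 (-0.41 ± 0.06) and Socs1, a suppressor of cytokine signalling (-1.44 ± 0.27, from 1.99 CPM). Of 34 listed NF-kB target genes 28 were tested; 7 fell and 2 rose, with a median of -0.35 (32.1% called against 38.9%). Tnfaip2 fell from 44.6 ± 6.06 to 18.4 ± 4.18 CPM (-1.28 ± 0.14 SE, edgeR adjusted p = 8.16e-06), as did Irf1 (-1.70 ± 0.30) and Traf1 (-1.55 ± 0.32), whereas the stress response gene Ier3 rose by 0.47 ± 0.10. Irf1 and Socs1 are also interferon-induced. Several of the target genes that fell were near or under 1 CPM in palatal libraries, so they could pass the filter through the buccal side alone; with at least 1 CPM required in 5 libraries the number called was 5.

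**Figure D4:**
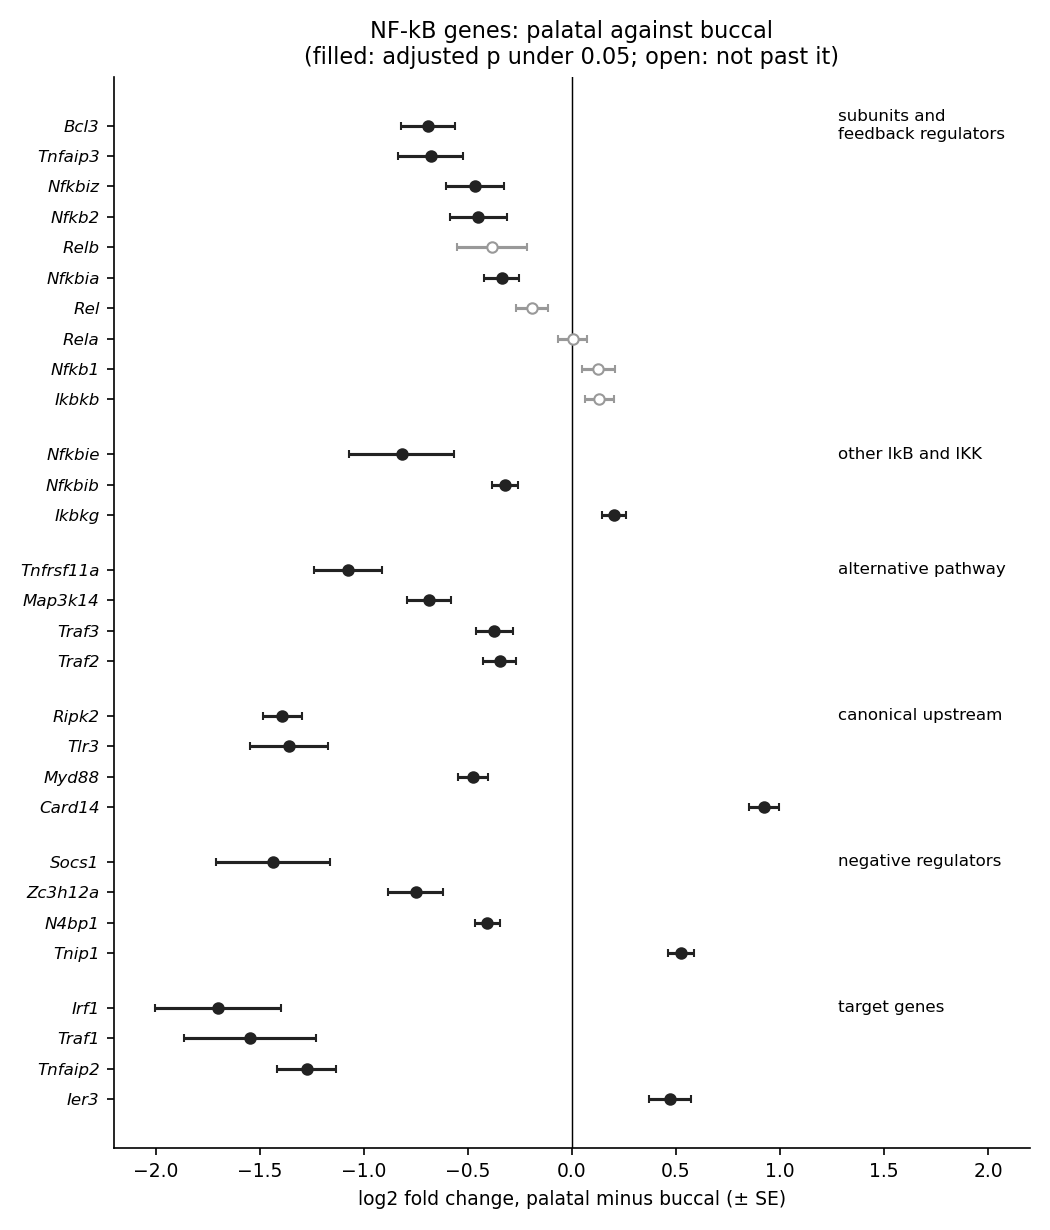
Log2 fold change, palatal minus buccal, with its SE (n = 5 per side) for the 10 genes and for up to 4 genes of each pathway list with the smallest p among those past the threshold. Filled points passed an adjusted p of 0.05 and open points did not; Card14, Tnip1, Ier3 and Ikbkg lie to the right of 0 and the other filled points to the left.

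Facts of the whole set bear on these values. Total counts ran from 25868777 to 37234192 per library, and the first principal component of log2 CPM (67.4% of variance) set the sides apart. Same-side libraries differed by more than sampling noise (chi-square per degree of freedom 7.61 to 58.0). All 13 keratinocyte markers were tested and summed to 138300 to 156900 CPM in buccal and 125200 to 136100 CPM in palatal libraries. Under that sum 6 were higher and 4 lower in palatal (76.9% called against 38.9%). Krt76 rose from a mean of 1978 to 37470 CPM, and Krt4 fell from 57980 to 13850 CPM. Most leukocyte markers were lower in palatal epithelium. Of 33 listed, 25 were tested, 20 fell and 2 rose (Itgam and Kit, the latter named after its value was seen). That is 88.0% called, against 38.9% of all tested genes. Several of those that fell were under 1 CPM in palatal libraries, so they could pass the filter through the buccal side alone. The leukocyte markers summed to 212.2 to 355.8 CPM in buccal and 92.3 to 133.4 CPM in palatal libraries. No leukocyte marker with values was at 0 in all libraries, and Trac had no values. Leukocytes express every Rel-family gene, and the part of these cells in the lower Nfkb2, Nfkbia, Nfkbiz, Bcl3 and Tnfaip3 was not tested. Fibroblast and matrix markers summed to 55.4 to 81.4 CPM in buccal and 106.7 to 121.9 CPM in palatal libraries. Of 9 tested, 3 were higher and 1 lower (44.4% called against 38.9%). Dcn rose from a mean of 6.61 to 73.3 CPM, whereas Vim fell from 32.7 to 8.50 CPM. Col1a1, Col1a2, Col3a1, Fn1 and Postn did not pass, so the higher palatal sum does not describe the listed markers as a set.

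Immediate early and heat shock genes can be induced by tissue handling, as can Nfkbia, Nfkbiz and Tnfaip3. Of 26 tested, 4 rose and 3 fell, with a median of 0.02 (26.9% called against 38.9%). The part of handling in the lower Nfkbia, Nfkbiz and Tnfaip3 was not tested. The listed immediate early and heat shock genes summed to 4263 to 6712 CPM in buccal and 4611 to 5900 CPM in palatal libraries. Hspb1 and Hspa8 fell by 0.39 ± 0.07 and 0.29 ± 0.07, and Klf4 and Fosl2 rose by 0.61 ± 0.13 and 0.35 ± 0.09 (edgeR adjusted p from 5.07e-04 to 0.00556). Since no label ties the libraries to separate animals, every p here reflects the variation among these 10 libraries alone, and that variation could be technical.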

How the data were processed

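Stranded libraries of polyadenylated RNA were sequenced from 1 end only, per the labels' protocols. From the submitters' processing notes come the build GRCm39 and 4 tools without roles: HTSeq 2.01, TopHat2 2.1.1, cutadapt 2.10 and DESeq2 1.36.0. How reads were counted, and on which strand, is not given in the sources used here, so reads of overlapping antisense genes cannot be told apart. The authors deposited raw counts per gene in every library. They also deposited a normalized signal, which equals the count divided by 1 factor per library and was not used. Of 55414 rows 6250 are blank and were left out, and 0 columns belong to other samples.

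Genes were kept by filterByExpr (minimum count 10) and scaled by TMM. Palatal was tested against buccal by the quasi-likelihood test of edgeR 4.0.16 (robust dispersion, two-sided; limma 3.58.1, DESeq2 1.42.0, R 4.3.3), with Benjamini-Hochberg adjustment over 14062 genes at 0.05. The SE is the fold change over the square root of F, and log2 CPM used 2 as prior count. Tested on simulated data with 13930 genes, the fit found 86.6% of 1.5-fold and 95.5% of 2-fold changes (67 genes each), with 11 false calls. Only genes with a mean of at least 1 CPM were altered, and far fewer than the 5474 called in the real data. The rates therefore need not hold for these libraries. Recovery of smaller changes, such as those of Nfkbia, Nfkb2 and Nfkbiz, was not measured. The 10 genes, the lists and the tests were chosen with earlier results of these data known. The naming rule took all 10 genes, up to 4 genes of each other list past the threshold with the smallest p, and for each of the 10 the 2 genes of most similar pattern, not all of which are reported here. Alternatives were other scalings (RLE, upper quartile, library totals), no filter and a stricter one, DESeq2's Wald test, limma-voom, the replicate number as a block, and leaving out libraries. Promoter windows are RefSeq's (GRCm38.p6), without the 50 bases after the start.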

Additional observations from a re-analysis of the deposited data

Results flagged for a closer look

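In the 20 groups of 5 libraries (10 genes on 2 sides) 2 single values stood apart from the rest of their group, where chance flags about 1 in 20 groups. Rel stood at 32.5 CPM in palatal library 5, above the other palatal libraries, which lay between 27.7 and 28.4 CPM. Tnfaip3 stood at 5.06 CPM in palatal library 4, below the other palatal libraries at 7.76 to 8.63 CPM.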

How the results depend on the processing

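Over 20 alternatives, Nfkb2, Nfkbia, Tnfaip3 and Bcl3 stayed lower in palatal and past the threshold in all, Nfkbiz in all but the fit with no filter (-0.46, adjusted p = 0.0903), and Nfkb1 and Ikbkb passed in none. The number of the 10 genes called ran from 4 to 7, and of all genes from 4810 to 5679. Rela changed sign around 0 without passing: -0.042 with library totals, -0.00013 in limma-voom, -0.00036 with the replicate block, and -0.036 to 0.052 with single libraries left out. Rel passed with library totals (-0.24) and without number 4 on both sides (-0.23); single omissions gave -0.24 to -0.16. Relb gave -0.48 to -0.27 with single libraries left out. The block on replicate number called 6 of the 10 genes, Relb (-0.40) among them. Same-numbered libraries correlated at -0.0226 to 0.328 in their deviations from the side means. For buccal libraries 1, 4 and 5 the palatal library of the same number correlated best, and for buccal libraries 2 and 3 palatal library 5 did. The numbers were not taken as pairs, and the labels do not say whether they mark pairs. Endothelial markers called came to 2 with no filter; with at least 1 CPM in 5 libraries target genes called came to 5 and melanocyte, glial and Merkel cell markers to 1. Canonical upstream genes called came to 7 without number 4 on both sides and to 7 to 11 with single omissions. The ratio of Relb to Rela missed the threshold without number 2 on both sides (-0.42) and gave -0.48 to -0.32 over single omissions; that of Nfkbiz to Nfkb1 missed it without number 4 on both sides (-0.47) and gave -0.71 to -0.50. Of 38 other named genes, 36 kept direction and call in every alternative that tested them. Nfkbie, Traf1 and Atoh1 were not tested with at least 1 CPM required in 5 libraries. Ikbkg lost its call with no filter (0.21) and Nfkbie without buccal library 1 (-0.63). The cause of these changes was not tested.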

Other observations

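Some target genes outside the naming rule were looked at after their values were seen. Tnf, a cytokine that both triggers and is induced by NF-kB, fell from 1.20 ± 0.40 to 0.47 ± 0.17 CPM (SD). Its log2 fold change was -1.32 ± 0.29 (SE, n = 5 per side, edgeR adjusted p = 0.00207). The adhesion gene Icam1 fell from 7.69 ± 2.62 to 4.15 ± 0.96 CPM (SD, edgeR adjusted p = 0.00589). For both genes the libraries of the sides overlapped, and the palatal level of Tnf was under 1 CPM. Plau, which encodes the urokinase protease, rose from 30.5 ± 5.47 to 40.4 ± 3.42 CPM (SD; edgeR adjusted p = 0.0107). Sod2, a mitochondrial superoxide dismutase gene widely used as an NF-kB target, stood at 93.9 ± 2.39 CPM in buccal and 86.3 ± 4.95 CPM in palatal libraries and did not pass (edgeR adjusted p = 0.11). The neutrophil chemokine genes Cxcl1 and Cxcl5 varied widely within the buccal side, at 4.17 ± 2.05 and 11.2 ± 7.34 CPM (SD), and did not pass either (edgeR adjusted p = 0.476 and 0.483).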
